A study of Homo sapiens with 6 samples.

Results

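The genes described here encode proteins that bind, protect and copy telomeres, the repeat-covered ends of chromosomes, and they were read in human fibroblasts in which an oncogene had been switched on to induce senescence. The 10 genes were chosen by symbol, and 9 of them have a row among the 59050 entries of the expression table: TERF1, TERF2, TERF2IP, POT1 and ACD of the shelterin complex, CTC1 and TEN1 of the CST complex, the helicase RTEL1, and TERT, the catalytic subunit of telomerase. TINF2, another shelterin gene, is not analysed here. The cells were HFF, human foreskin fibroblasts at an early passage, transduced with ER:RAS, oncogenic H-RAS fused to an oestrogen receptor domain that binds hormone, and selected with neomycin as a stable population. One group of 3 libraries came from cells given 100 nM 4-hydroxytamoxifen (4-OHT), which activates the fusion protein, and the other group of 3 came from cells given DMSO, its solvent. Per the series description, the senescent cells were harvested a week after 4-OHT. The labels do not say whether the replicates were separate cultures, so the p-values below measure only the spread between these libraries.

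Shelterin coats the telomeric repeat and keeps the cell from treating a chromosome end as a DNA break. TERF1 and TERF2 bind the double-stranded repeat, TERF2IP (RAP1) rides on TERF2, and POT1 binds the single-stranded overhang as a partner of ACD (TPP1), which also brings telomerase to the end. CST, made of CTC1, STN1 and TEN1, stops telomerase and helps DNA polymerase alpha-primase fill in the complementary strand, while RTEL1 unwinds telomere loops during replication. Fibroblasts normally keep TERT silent, so that their telomeres shorten with division, whereas senescence after oncogenic RAS is known to set in without waiting for that shortening.

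ACD was the member that fell most. It was 2.57-fold lower in 4-OHT cells. POT1 and RTEL1 were also lower, though each failed the test in 6 of 14 alternative settings. CTC1 was higher by a narrow margin and failed in 7 of them. TERF1, TERF2, TERF2IP and TEN1 did not pass the test. TERT was listed at or near 0 in both groups. Levels are in TPM, each gene's share of a library's transcripts after correction for length, as mean ± SD of 3 libraries per group where an SD is given. A log2 fold change is 4-OHT minus DMSO of log2(TPM + 1), a scale that shrinks the change of weakly expressed genes, and adjusted p-values are from limma with Benjamini-Hochberg adjustment over all 15272 genes that averaged 1 TPM or more, with a threshold of 0.05.

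That test called 49.6% of all genes tested, 19.8% as higher and 29.9% as lower. Of the 8 telomere genes that reached a mean of 1 TPM, 4 were called (1 higher, 3 lower), with a median log2 fold change of -0.07 against -0.09 over all genes tested. The share of calls among the 8 genes was thus close to that of the whole table. The groups did not overlap in 4 of the 8, against 59% of all genes tested. The number called fell to 1 without 4-OHT replicate 1 or DMSO replicate 1, and to 2 without DMSO replicate 3. Over all genes tested, those fits called 6824 of 15365, 6687 of 15221 and 6732 of 15214, in the same order. The direction of small changes depended on how libraries were scaled. Of the called genes, 60.2% were lower with the values as deposited, 47% under median-of-ratios scaling and 49.7% under quantile normalization, and median-of-ratios scaling shifted the genes upward by a median of 0.113 log2 units. Among the telomere genes that scaling gave 2 higher and 2 lower calls, and quantile normalization gave 2 higher and 1 lower.

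**Figure D1:**
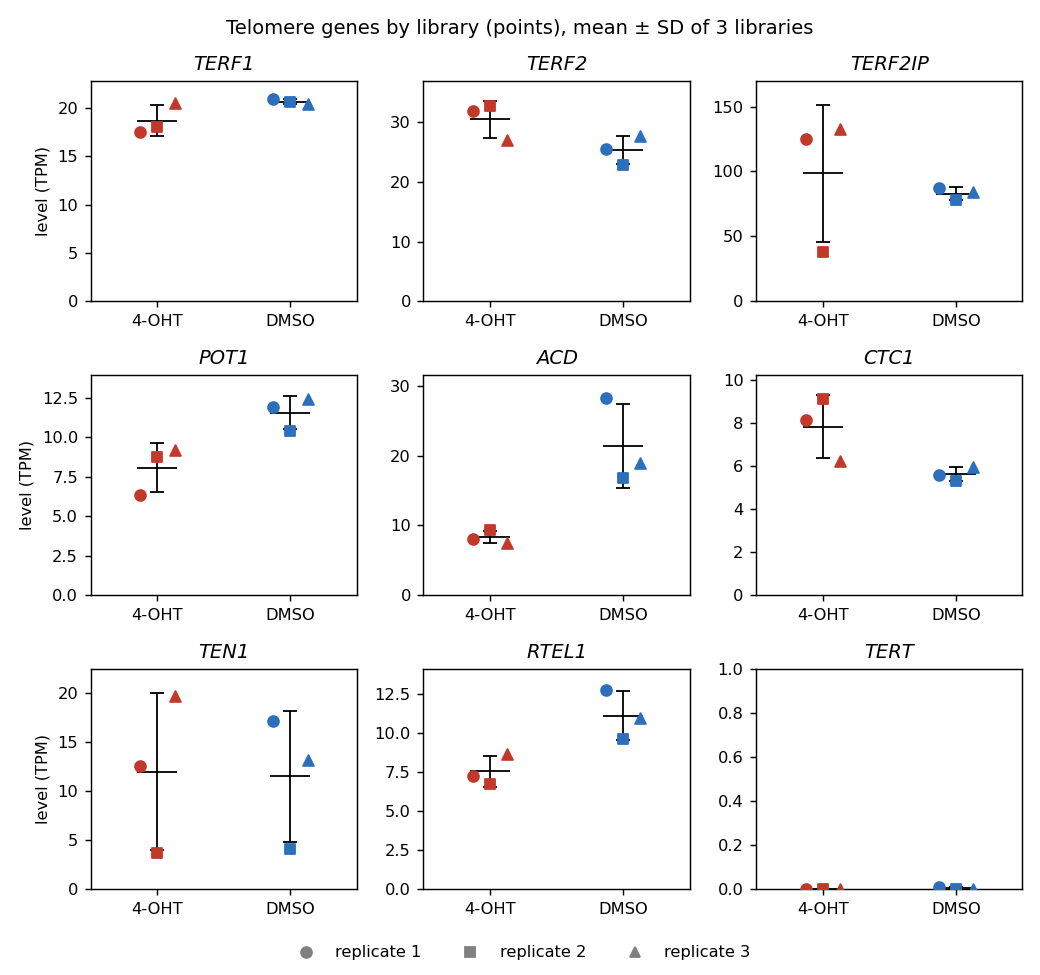
Level (TPM, vertical axes from 0, a different range in each panel) of the 9 telomere genes in every library, with 4-OHT on the left and DMSO on the right of each panel, a horizontal line for the mean and bars for the SD of 3 libraries. The points of ACD, POT1, RTEL1 and CTC1 do not overlap between the groups, TERF2IP has 1 low 4-OHT library (37.7 TPM), and TERT lies at the foot of its panel, whose axis was fixed at 1 TPM.

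The replicates within each group were alike by these values, which do not measure RNA quality. Between 0.701% and 0.871% of the tested genes in a library lay more than 1 log2 unit beyond both other replicates. No library thus stood apart from its group as a whole. Between the groups, 14835 to 14930 genes reached 1 TPM in 4-OHT libraries, against 15497 to 15546 in DMSO libraries. All 10 fibroblast markers were above 1 TPM, with a summed level of 19100 to 19500 TPM in 4-OHT libraries and 20200 to 20800 TPM in DMSO libraries. Summed markers of smooth muscle and pericytes (3 of 5 genes at a mean of at least 1 TPM) were at 264 to 266 TPM in 4-OHT and 272 to 288 TPM in DMSO. Those of keratinocytes and epithelium (2 of 7, KRT10 and EPCAM) were at 32.8 to 43.2 TPM in 4-OHT and 37.5 to 52.5 TPM in DMSO, with KRT5, KRT14, KRT1, TP63 and CDH1 below 0.1 TPM in every library. Immune markers (1 of 6, CD14) summed to 4.44 to 10.4 TPM in 4-OHT and 2.29 to 4.45 TPM in DMSO, endothelial ones (1 of 6) to 1.38 to 1.87 and 2.54 to 2.8 TPM, and melanocyte ones (1 of 4) to 0.647 to 1.01 and 1.39 to 2.64 TPM, in the same order of groups. Genes of proliferation moved with the treatment. All 11 listed markers were called lower (median log2 fold change -2.23), against 29.9% of all genes tested. Among them were TOP2A (17.6 TPM in 4-OHT against 120.0 TPM in DMSO) and MKI67 (5.17 against 34.1 TPM). Their part in the results below was not tested, and in bulk RNA fewer cells that express a gene and less of its RNA per cell cannot be told apart.

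Within shelterin, ACD and POT1, whose proteins form the unit on the single-stranded overhang, were both lower in 4-OHT cells. ACD (chromosome 16, 67657512 to 67660815, minus strand, GRCh38, GENCODE 29) was read at 8.11, 9.32 and 7.52 TPM in the 4-OHT libraries, against 28.2, 16.8 and 19.0 TPM in the DMSO libraries. Every 4-OHT library lay below every DMSO library, as held for 35.2% of all genes tested. The log2 fold change was -1.23 (SE 0.187, adjusted p = 0.0014, limma), and 5.64% of the tested genes had a lower one. A fall of at least 1 log2 unit was called in 8.21% of the tested genes. Among the 4 calls, ACD's was the one that held under all 14 alternative settings tried, with log2 fold changes from -1.38 to -1.02 and adjusted p-values from 0.00124 to 0.0148.

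POT1 (chromosome 7, 124822386 to 124929983, minus strand) was read at 6.32, 8.72 and 9.21 TPM in 4-OHT, against 11.9, 10.4 and 12.4 TPM in DMSO. The groups did not overlap, as held with 4-OHT lower for 35.2% of all genes tested, and the highest 4-OHT library and the lowest DMSO library were close. Of the tested genes, 23.8% had a lower log2 fold change. POT1 was 1.43-fold lower in 4-OHT cells (log2 fold change -0.48, SE 0.146, adjusted p = 0.0296, limma). Median-of-ratios scaling (adjusted p = 0.0678) and quantile normalization (0.131) ended the call, as did leaving out 4-OHT replicate 1 (0.0523), DMSO replicate 1 (0.0817) or DMSO replicate 3 (0.0892), over a range of 0.0262 to 0.131 for the 14 alternatives.

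ACD fell further than POT1, and the ratio of their transcripts was lower in every 4-OHT library than in any DMSO library. The ratio of ACD to POT1, both in TPM, was 1.28, 1.07 and 0.816 in 4-OHT libraries and 2.37, 1.61 and 1.54 in DMSO libraries. Its mean was 1.06 ± 0.234 in 4-OHT and 1.84 ± 0.457 in DMSO (SD, n = 3 each, 2-sided exact permutation p = 0.1, the smallest that 3 against 3 libraries can give).

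Neither TERF1 nor TERF2, whose proteins bind the double-stranded repeat, was called. TERF1 (TRF1, chromosome 8, 73008864 to 73048122, plus strand), which helps replication forks pass through the repeat, was read at 17.5, 18.0 and 20.5 TPM in 4-OHT, against 20.9, 20.6 and 20.4 TPM in DMSO. The third 4-OHT library lay just above the lowest DMSO library, and the difference was not called (log2 fold change -0.14, 95% interval -0.32 to 0.04, adjusted p = 0.18, limma). TERF2 (TRF2, chromosome 16, 69355561 to 69408571, minus strand), which holds the end in a loop and keeps ends from being joined, was read at 31.8, 32.8 and 27.0 TPM in 4-OHT, against 25.5, 22.9 and 27.7 TPM in DMSO. The groups overlapped through 1 library on each side, and the log2 fold change of 0.26 (SE 0.101) had an adjusted p of 0.0738 in limma. TERF2 was called as higher in 3 of the 14 alternatives, namely with quantile normalization (0.31, adjusted p = 0.0454), with median-of-ratios scaling (0.37, adjusted p = 0.0205) and on leaving out 4-OHT replicate 3 (0.34, adjusted p = 0.0297). The ratio of TERF2 to TERF1 was 1.81, 1.82 and 1.32 in 4-OHT and 1.22, 1.11 and 1.36 in DMSO, which overlap (exact permutation p = 0.2).

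TERF2IP (chromosome 16, 75647786 to 75761872, plus strand), which encodes RAP1, was the most abundant of the 9 transcripts, and its 4-OHT replicates were far apart. It was read at 125, 37.7 and 133 TPM in 4-OHT, against 87.2, 77.9 and 83.9 TPM in DMSO. A pair of 4-OHT libraries lay above all DMSO libraries and the other one lay far below them, so that the coefficient of variation was 53.7% in 4-OHT and 5.7% in DMSO. The log2 fold change of 0.05 (SE 0.443, adjusted p = 0.938, limma) turned to 0.63 (adjusted p = 0.000688) without 4-OHT replicate 2, and to -0.22 and -0.26 without 4-OHT replicate 1 and 3 (adjusted p = 0.735 and 0.67). The gene shares 176 exonic bases, 5.2% of its own, with KARS, a lysyl-tRNA synthetase gene on the opposite strand, and the strand setting is not given in the sources used here. KARS was at 183, 204 and 182 TPM in 4-OHT, and 161, 177 and 168 TPM in DMSO.

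**Figure D2:**
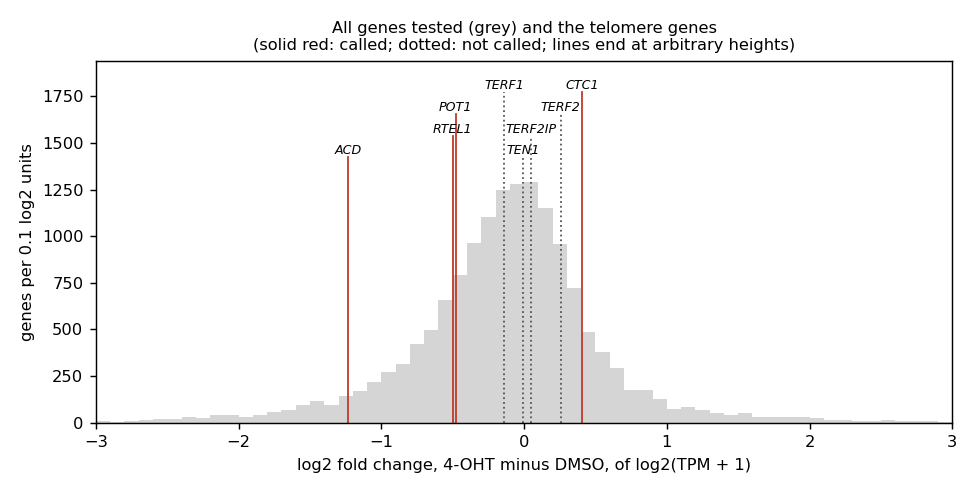
Number of genes (vertical axis) by log2 fold change in bins of 0.1 log2 units (horizontal axis, shown from -3 to 3) for all genes tested, with a line for each tested telomere gene, solid red where called and dotted where not. ACD at -1.23 lies in the lower tail, and the other 7 telomere genes lie between -0.50 and 0.40, in the bulk of the genes.

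Of the CST complex, CTC1 was called as higher in 4-OHT cells and TEN1 was not called. CTC1 (chromosome 17, 8224821 to 8248095, minus strand), the large subunit, was read at 8.11, 9.09 and 6.23 TPM in 4-OHT, against 5.59, 5.28 and 5.93 TPM in DMSO. The groups did not overlap, as held with 4-OHT higher for 23.8% of the tested genes, and the gap between the nearest libraries was small. CTC1 was 1.39-fold higher in 4-OHT cells (log2 fold change 0.40, SE 0.142), and its adjusted p of 0.0492 in limma lay just under the threshold. The call was lost on leaving out 4-OHT replicate 1 (0.123), 4-OHT replicate 2 (0.141), DMSO replicate 1 (0.105), DMSO replicate 2 (0.125) or DMSO replicate 3 (0.0786), and its direction was the same in all 14 alternatives (0.30 to 0.64). PFAS, a purine synthesis gene whose locus overlaps that of CTC1 on the opposite strand with no exonic base in common, was lower (6.89 TPM in 4-OHT, 13.9 TPM in DMSO, adjusted p = 0.000401, limma).

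STN1, which is not among the 9 but completes the complex, also rose, at 25.2, 27.2 and 36.6 TPM in 4-OHT against 22.5, 17.3 and 17.0 TPM in DMSO (log2 fold change 0.61, SE 0.162, adjusted p = 0.0171, limma). Its call was lost on leaving out DMSO replicate 2 (adjusted p = 0.0547) or DMSO replicate 3 (0.0580) and with no filter on low values (0.0848), over a range of 0.00794 to 0.0848 for 13 alternatives. The ratio of CTC1 to STN1 overlapped between the groups (0.322, 0.334 and 0.17 in 4-OHT, against 0.249, 0.306 and 0.349 in DMSO). TEN1 (chromosome 17, 75979220 to 76000586, plus strand), the small subunit, was read at 12.6, 3.64 and 19.7 TPM in 4-OHT, against 17.2, 4.13 and 13.2 TPM in DMSO. Replicate 2 was low in both groups, and the spread inside each group far exceeded the difference between them (log2 fold change -0.0049, 95% interval -1.53 to 1.52, adjusted p = 0.996, limma).

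TEN1 and RTEL1 each have a read-through gene, a transcript unit that runs on into the next gene on the same strand, and the table has a row for each of these. TEN1-CDK3 holds 983 of the exonic bases of TEN1 (75.4%), and RTEL1-TNFRSF6B holds 4522 of those of RTEL1 (70.2%), so that how a library's reads were divided between such rows is uncertain. TEN1-CDK3 was high where TEN1 was low, at 3.25, 7.45 and 1.45 TPM in 4-OHT and 2.64, 5.6 and 3.15 TPM in DMSO. TEN1 took 79.4%, 32.9% and 93.1% of the sum of both rows in 4-OHT, and 86.7%, 42.4% and 80.7% in DMSO. The sums, 15.8, 11.1 and 21.2 TPM in 4-OHT against 19.8, 9.73 and 16.3 TPM in DMSO, overlapped as well, and were lowest in replicate 2 of each group.

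RTEL1 (chromosome 20, 63657810 to 63696253, plus strand) was read at 7.24, 6.76 and 8.66 TPM in 4-OHT, against 12.8, 9.62 and 11.0 TPM in DMSO. All 4-OHT libraries lay below all DMSO libraries, as held for 35.2% of all genes tested. RTEL1 was 1.47-fold lower in 4-OHT cells (log2 fold change -0.50, SE 0.133, adjusted p = 0.0173, limma), and 22.5% of the tested genes had a lower log2 fold change. RTEL1-TNFRSF6B was at 4.55, 1.66 and 7.64 TPM in 4-OHT and 3.3, 7.39 and 3.5 TPM in DMSO, and with both rows summed (11.8, 8.42 and 16.3 TPM in 4-OHT, against 16.1, 17.0 and 14.5 TPM in DMSO) the groups overlapped and the adjusted p was 0.156. Quantile normalization also ended the call (adjusted p = 0.113), as did leaving out 4-OHT replicate 1 (0.0504), 4-OHT replicate 2 (0.0541) or DMSO replicate 1 (0.0549).

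**Figure D3:**
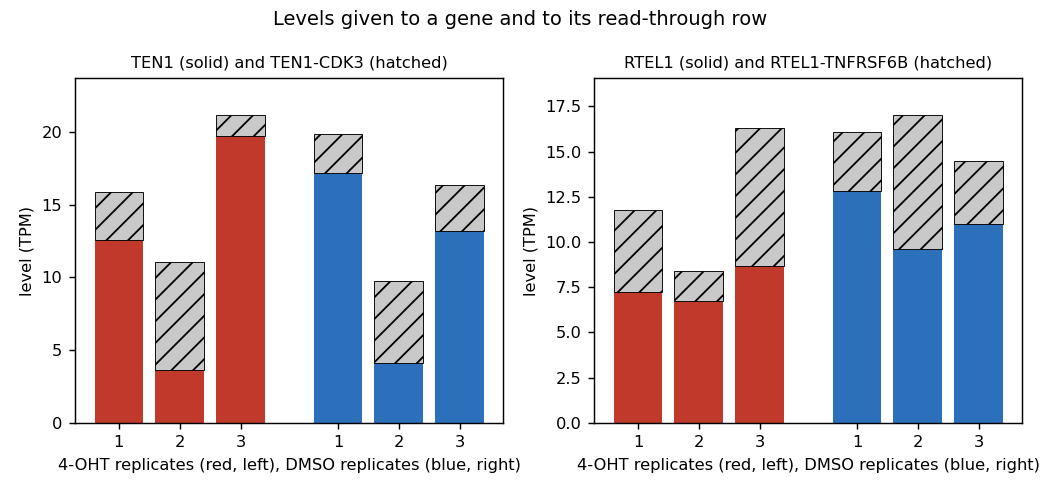
Level in TPM (vertical axis from 0) of TEN1 and RTEL1 (solid) with that of their read-through rows stacked on top (hatched) in each of the 6 libraries, 4-OHT in red on the left and DMSO in blue on the right of each panel. The division between the rows varies among replicates, and TEN1 is down to 3.64 and 4.13 TPM in replicate 2 of 4-OHT and of DMSO.

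TERT (chromosome 5, 1253147 to 1295069, minus strand) was listed at 0 in 4 of the 6 libraries, at 0.000686 TPM in 4-OHT replicate 2 and at 0.0104 TPM in DMSO replicate 1. It was too low to be tested, and the depth behind TPM is unknown, so no limit of detection can be given. TERC, the RNA template of telomerase, was listed at 0 in all libraries but 4-OHT replicate 2 (0.0845 TPM). For TERC too no limit of detection can be given, so these values do not show that the cells lacked it. The proteins that mature and carry that RNA also serve other small RNAs, and they were expressed: DKC1, the dyskerin pseudouridine synthase, was at 60.4 TPM in 4-OHT and 65.4 TPM in DMSO (log2 fold change -0.11, adjusted p = 0.0849, limma; 0.0070 under median-of-ratios scaling). Of 13 tested genes of telomerase assembly, 4 fell and 1 rose (median -0.17), which is 38.5% called, against 49.6% of all genes. Those that changed most were WRAP53, which brings telomerase to Cajal bodies (9.32 TPM in 4-OHT, 13.6 TPM in DMSO, log2 fold change -0.49), GAR1 (40.3 and 54.7 TPM, -0.44) and NOP10 (386 and 291 TPM, 0.40), both in the core of the particle with dyskerin, and the assembly factor RUVBL2 (129 and 167 TPM, -0.37).

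By level, the 4-OHT libraries ran in the order TERF2IP (98.7 ± 53.0 TPM), TERF2 (30.5 ± 3.13), TERF1 (18.7 ± 1.57), TEN1 (12.0 ± 8.05), ACD (8.32 ± 0.915), POT1 (8.08 ± 1.54), CTC1 (7.81 ± 1.45) and RTEL1 (7.55 ± 0.989), with TERT last. The ranges of the last 4 of these 8 genes overlapped one another. That of TEN1 (3.64 to 19.7 TPM) covered all of them and reached that of TERF1. The order among these genes is thus not resolved. In DMSO the order was TERF2IP (83.0 ± 4.73 TPM), TERF2 (25.4 ± 2.4), ACD (21.3 ± 6.07), TERF1 (20.6 ± 0.263), POT1 (11.6 ± 1.04), TEN1 (11.5 ± 6.68), RTEL1 (11.1 ± 1.57) and CTC1 (5.6 ± 0.328). There POT1, TEN1 and RTEL1 overlapped one another, and CTC1 lay below POT1 and RTEL1 in every library. TEN1 (4.13 to 17.2 TPM) also spanned the range of CTC1 and reached that of ACD. By mean, ACD thus stood among TERF1 and TERF2 in DMSO, and among POT1, CTC1 and RTEL1 in 4-OHT. In DMSO its range overlapped those of TERF1 and TERF2 only through replicate 1 (28.2 TPM). At 16.8 and 19.0 TPM, ACD in DMSO replicates 2 and 3 lay below every DMSO library of TERF1 and TERF2.

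**Figure D4:**
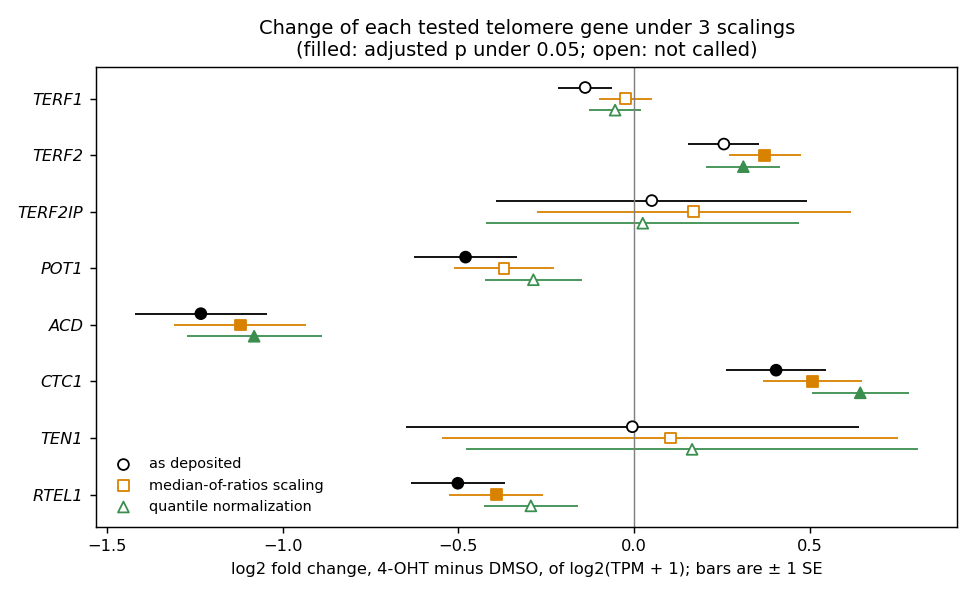
Log2 fold change (horizontal axis, 4-OHT minus DMSO, bars ± 1 SE) of the 8 tested telomere genes with the values as deposited (black circles), under median-of-ratios scaling (orange squares) and under quantile normalization (green triangles), filled where the adjusted p was under 0.05. ACD and CTC1 are filled under all 3, POT1 only as deposited, and TERF2 only under the other 2.

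The stretches in front of the 3 genes that were called lower are shown for their base content and for what motifs they hold. Of the 9 genes, 5 have a promoter in the RefSeq table used here. In the 250 bases before the RefSeq start (GRCh38.p14, gene strand) the motifs searched on both strands were GGGCGG (GC box), CCGGAAG (ETS), TGACTCA (AP-1), CACGTG (E-box), TTTCCCGC and TTTGGCGC (E2F) and TTAGGG (the telomere repeat), none of which overlapped another in these windows. Each stretch below leaves out non-coding exon bases of GENCODE 29, and capitals mark motif matches. That of ACD is coding in a longer annotated transcript.
ACD, chr16:67660261-67660478, minus strand: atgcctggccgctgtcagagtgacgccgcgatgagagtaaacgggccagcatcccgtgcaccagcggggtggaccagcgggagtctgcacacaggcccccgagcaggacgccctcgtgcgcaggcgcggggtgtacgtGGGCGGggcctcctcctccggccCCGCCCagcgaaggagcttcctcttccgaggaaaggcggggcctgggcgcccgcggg
POT1, chr7:124929984-124930075, minus strand: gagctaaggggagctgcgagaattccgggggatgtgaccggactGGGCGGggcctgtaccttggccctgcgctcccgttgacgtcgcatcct
RTEL1, chr20:63657560-63657809, plus strand: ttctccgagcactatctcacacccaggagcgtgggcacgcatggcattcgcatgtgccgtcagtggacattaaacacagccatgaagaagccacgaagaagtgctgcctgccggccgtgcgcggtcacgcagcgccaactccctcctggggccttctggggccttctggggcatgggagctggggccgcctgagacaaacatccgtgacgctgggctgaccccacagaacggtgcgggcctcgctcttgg
The 250-base windows were 70.8% G and C in ACD, 64.4% in POT1 and 64.0% in this window of RTEL1, against a median of 58.0% over 35116 promoters. ACD holds a GC box 80 and another 57 bases before its start, and POT1 holds one at 206 and another at 93 bases, where 42.6% of all promoters hold at least 1. RTEL1 held no match in the window shown. A second RTEL1 start in the table has a GC box and an ETS match, which 8.52% of all promoters hold. None of the windows of these 3 genes had a match to the AP-1, E-box, E2F or telomere-repeat letters, which 4.2% (AP-1), 6.34% (E-box), 1.39% (TTTCCCGC), 0.55% (TTTGGCGC) and 7.94% (TTAGGG) of all promoters hold. TERT and TERF2IP, which were not called lower, were also above the median, at 78.8% and 62.8% G and C. TERT holds GC boxes 244 and 86 bases before its start and an E-box match. TERF2IP holds a GC box 44 bases before its start and an ETS match. A match or its lack is a description of these letters only.

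The partners of CST in filling in the C-rich strand fell. PRIM1 and POLA1 did so by more log2 units than ACD (-1.23), and PRIM2 by about as much (2.56-fold, against 2.57-fold for ACD). All 4 subunits of DNA polymerase alpha-primase were lower in 4-OHT cells: the primase subunits PRIM1 (2.53 TPM in 4-OHT, 16.0 TPM in DMSO, log2 fold change -2.27) and PRIM2 (14.3 and 36.7 TPM, -1.30), the catalytic POLA1 (2.71 and 11.8 TPM, -1.80) and the accessory POLA2 (9.91 and 22.1 TPM, -1.08), with adjusted p-values from 2.46e-05 to 0.000136 (limma). Of that list of 5 genes 100% were called, against 49.6% of all genes tested (median -1.30). STN1 was its remaining gene and the one called higher, a call that leaving out DMSO replicate 2 or 3 ended. The polymerase also starts every replication fork, and the proliferation markers fell in the same libraries.

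Of 6 tested regulators of shelterin, 1 rose and 1 fell (33.3% called, against 49.6% of all genes tested, median 0.09). TNKS2, a tankyrase that takes TRF1 off the telomere, was higher (35.3 TPM in 4-OHT, 26.7 TPM in DMSO, log2 fold change 0.39, adjusted p = 0.0015, limma), and FBXO4, a ubiquitin ligase subunit that targets TRF1, was lower (6.51 and 15.4 TPM, -1.14, adjusted p = 0.000639). Median-of-ratios scaling gave 3 higher and 1 lower. PINX1, an inhibitor of telomerase that binds TRF1, was listed at 0 in all 6 libraries. That does not show that the gene was silent, since no limit of detection can be given, and the cause was not tested.

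Nucleases and helicases that trim or unwind chromosome ends fell in 11 of 16 genes and rose in 1 (75% called, against 49.6% of all genes tested, median -0.79). EXO1, which lengthens the overhang by resection, was at 3.34 TPM in 4-OHT and 17.3 TPM in DMSO (log2 fold change -2.08), the helicase BLM at 1.36 and 7.18 TPM (-1.78), the flap nuclease FEN1 at 27.2 and 86.1 TPM (-1.63), and EME1, a partner of MUS81, at 2.23 and 8.82 TPM (-1.60). DCLRE1B (Apollo), the nuclease that TRF2 recruits, was lower too, at 3.5 and 7.85 TPM (-0.98, adjusted p = 0.000276, limma). The gene that rose was ERCC1, a subunit of an endonuclease that trims overhangs (206 TPM in 4-OHT, 98.5 TPM in DMSO, 1.05, adjusted p = 2.43e-05). DCLRE1B and ERCC1 were chosen after their values were seen.

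Genes of damage signalling and end joining, which act when an end is unprotected, fell in 14 of 20 and rose in 2 (80% called, against 49.6% of all genes tested, median -0.59). POLQ, the polymerase of microhomology-mediated joining, was at 0.829 TPM in 4-OHT and 7.27 TPM in DMSO (log2 fold change -2.17). H2AFX, the histone variant marked at breaks, was at 59.2 and 143 TPM (-1.26), MAD2L2 of the shieldin complex at 31.0 and 66.3 TPM (-1.07), and the checkpoint adaptor TOPBP1 at 11.5 and 23.8 TPM (-0.98). Those that rose were ATM, the kinase that TRF2 holds in check (26.0 and 16.7 TPM, 0.61, adjusted p = 0.0117, limma), and TP53BP1, which gathers at unprotected ends (37.0 and 32.0 TPM, 0.20, adjusted p = 0.0221), both chosen after their values were seen. The call of TP53BP1 was lost on leaving out 4-OHT replicate 2 (0.0603), 4-OHT replicate 3 (0.0629), DMSO replicate 2 (0.0572) or DMSO replicate 3 (0.0625) and with the replicate number as a block (0.0574), and that of ATM with no filter on low values (0.0614). Median-of-ratios scaling gave 4 higher and 13 lower in this list.

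Telomeric chromatin and recombination-based maintenance showed 8 of 17 genes lower and 1 higher (52.9% called, close to the 49.6% of all genes tested, median -0.23). Among those lower were FANCD2 of the Fanconi anaemia repair pathway (2.17 TPM in 4-OHT, 11.6 TPM in DMSO, log2 fold change -2.01), the polymerase subunit POLD3 (4.29 and 18.0 TPM, -1.84) and RAD52, which anneals single strands (7.8 and 15.7 TPM, -0.92). ATRX, a chromatin remodeller whose loss is known from cells that maintain telomeres by recombination, was called slightly higher (29.4 and 24.2 TPM, 0.27, adjusted p = 0.0368, limma, chosen after its values were seen). Its call was lost in 7 of 13 alternatives, among them leaving out 4-OHT replicate 2 (0.104), 4-OHT replicate 3 (0.109), DMSO replicate 1 (0.0977), DMSO replicate 2 (0.0934) or DMSO replicate 3 (0.0533). Median-of-ratios scaling gave 2 higher and 7 lower. These lists hold many genes that dividing cells use in S phase. The proliferation markers fell in the same libraries (11 of 11 called lower, against 29.9% of all genes tested, median -2.23).

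**Figure D5:**
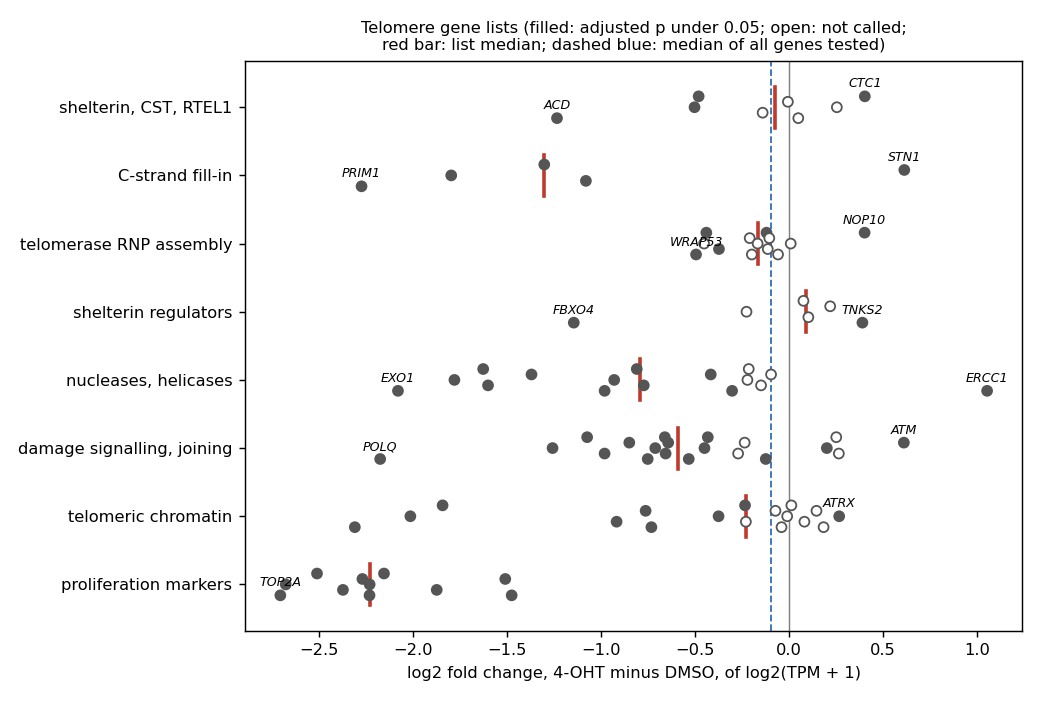
Log2 fold change (horizontal axis, 4-OHT minus DMSO) of each tested gene in 8 lists (rows), filled where the adjusted p was under 0.05, with a red bar at each list's median and a dashed blue line at the median of all genes tested (-0.09). The medians of shelterin with CST and RTEL1 (-0.07), telomerase assembly (-0.17) and shelterin regulators (0.09) lie near that line, and those of C-strand fill-in (-1.30), nucleases and helicases (-0.79) and proliferation markers (-2.23) lie to its left.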

How the data were processed

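Per the submitters' processing notes, the authors used Trim Galore 0.6.6, STAR and StringTie with GRCh38. The deposited values are TPM, 1 column per library, with no recorded scaling between libraries. The column of DMSO replicate 3 holds other deposited TPM values of which 1 lay slightly below 0 and was set to 0. Neither the gene annotation nor the strand setting is given in the sources used. TPM keep no read depth, so no counting error or detection limit was computed. Gene positions and exon overlaps are from GENCODE 29, and promoter sequences are from RefSeq (GRCh38.p14).

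Genes averaging 1 TPM or more across 6 libraries entered a fit on log2(TPM + 1) (R 4.3.3, limma 3.58.1, trended eBayes, 2-sided, no covariates), with p-values adjusted by Benjamini-Hochberg over all genes tested at a threshold of 0.05. The procedure was tested on simulated data with 200 changed genes. Ratios were compared by exact permutation. The members, gene lists and tests were chosen with earlier results of these data known. Genes named are the members, the 4 largest called changes of each other list, TERC, DKC1, STN1, rows overlapping a member, and others said to be chosen after their values were seen. Some genes that this rule names are not reported here. Python 3.11.15, pandas 2.3.3 and matplotlib 3.10.9 were used for tables and plots.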

Additional observations from a re-analysis of the deposited data

How the results depend on the processing

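The alternatives were median-of-ratios scaling, quantile normalization, a pseudocount of 0.1, no filter on low values, a mean of at least 5 TPM, no variance trend, a replicate block, leaving out each library in turn and, chosen after the data were seen, summed read-through rows. The number of telomere genes called (4) was 1 with no filter on low values and ranged from 1 to 5 on leaving out a library (1 without 4-OHT replicate 1 or DMSO replicate 1, 2 without DMSO replicate 3). Fewer genes were called over the whole table too, at 6834 of 36814 with no filter, against 7579 of 15272 in the main fit. The calls were 6824 of 15365 without 4-OHT replicate 1, 6687 of 15221 without DMSO replicate 1 and 6732 of 15214 without DMSO replicate 3. Among shelterin regulators 4 were called under median-of-ratios scaling, against 2. With no filter, POT1 (adjusted p = 0.102), RTEL1 (0.062) and CTC1 (0.131) were not called. The direction of TERF2IP turned without 4-OHT replicate 1 (-0.22) or 3 (-0.26), within a range of -0.26 to 0.63 on leaving out a library. That of TEN1, near 0, turned under median-of-ratios scaling (0.10), quantile normalization (0.17), summed rows (0.074), and without 4-OHT replicate 2 (0.61), DMSO replicate 1 (0.36) or DMSO replicate 3 (0.18), within a range of -0.55 to 0.61. DKC1, not called, was at 0.0070 under median-of-ratios scaling and was called lower under quantile normalization (adjusted p = 0.0321), which ended the call of WRAP53 (0.0505). The cause was not tested. Genes called over the whole table lay between 6222 (of 11055 tested, mean of at least 5 TPM) and 7618 (of 15225, median-of-ratios scaling), against 7579 of 15272. The number tested differed between settings, so these counts are not like shares. Replicate numbers are shared by the groups. The deviations of same-numbered libraries correlated at only 0.0475, 0.0055 and 0.0066, and not every library correlated best with its own number. Such correlations over all genes tested cannot show whether single genes varied with the replicate number. TEN1 was lowest in replicate 2 of both groups, and its SE was 0.202 with the replicate block, against 0.645 without it. Whether the libraries were paired is not known. With the replicate block 7065 genes and 3 telomere genes were called, CTC1 having an adjusted p of 0.0879. Depth is unknown, so what was listed at 0 cannot be bounded.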

Other observations

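The genes downstream of the read-through units were read as follows. Each unit runs on into its downstream gene, so how reads were divided between these rows is uncertain here too. TNFRSF6B, a decoy receptor next to RTEL1, was at 80.2, 85.1 and 0.79 TPM in 4-OHT and 25.4, 0.0627 and 0.331 TPM in DMSO, so that 1 library of 4-OHT was near the floor and 1 of DMSO was far above the others (log2 fold change 2.80, SE 1.79, adjusted p = 0.237, limma). Without 4-OHT replicate 3 the log2 fold change was 4.64 (adjusted p = 0.0344, limma). In each group the row of RTEL1-TNFRSF6B was highest where TNFRSF6B was lowest, at 7.64 TPM in 4-OHT replicate 3 and 7.39 TPM in DMSO replicate 2. Whether the division of reads between these rows bears on the values of TNFRSF6B was not tested. CDK3, a kinase gene next to TEN1, was lower, at 0.943, 1.73 and 1.47 TPM in 4-OHT against 3.61, 2.47 and 2.74 TPM in DMSO (log2 fold change -0.73, adjusted p = 0.0175, limma). The call of CDK3 was lost without DMSO replicate 1 (0.0615), under quantile normalization (0.0732), with no filter on low values (0.0737) and with the replicate block (0.0513). CDK3 averaged 1.38 TPM in 4-OHT and 2.94 TPM in DMSO, below the row of TEN1-CDK3 (4.05 and 3.8 TPM). Whether its fall reflects the division of reads between these rows was not tested.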
